A study of Drosophila melanogaster with 13 samples.

Results

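Long noncoding RNAs (lncRNAs) are transcripts that are capped and often spliced like messenger RNAs but hold no long open reading frame. Some act in the nucleus as scaffolds for RNA-binding proteins, some are the precursors from which microRNAs are cut, and for most fly lncRNAs no function is known. In the brain many of them are made in only some kinds of cell. The genes described here were the rows of the deposited count table whose symbol begins with lncRNA: and that reached 20 CPM, reads per 1e6 reads of the library, in at least 2 of 13 libraries. The dosage compensation RNAs roX1 and roX2 were left out. This gave 38 genes of 1913 lncRNA rows, in a table of 17737 genes. The level itself chose them, so that these genes are present, and in how many libraries, is given as a description and not as a test.

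Each library was made from neurons that carried GFP and were picked by hand out of protease-treated Drosophila melanogaster brains. A TRH-Gal4 driver, after the gene of the serotonin enzyme tryptophan hydroxylase, marked the cells of 4 pools, named here by the numbers in their labels (40, 45, 57 and 60). An sNPFR-Gal4 driver, after the gene of a neuropeptide receptor, marked the cells of 1 pool (16) and 8 single cells (1 to 7 and 10). Brains were acutely dissociated for TRH-Gal4 but pinned for sNPFR-Gal4, which means that driver and tissue handling cannot be told apart. Pools held 15 to 60 cells and their cDNA had 12 cycles of amplification, against 17 for single cells. A driver marks every cell in which it is active, so a pool can mix kinds of neuron. The labels name no age, sex, GFP line or number of animals, and single cells were therefore not counted as replicates. In a pool, fewer cells that make an RNA and less of it per cell cannot be told apart.

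Depth ran from 3.38 to 68.0 M reads, so that 20 CPM was 67.6 reads in the shallowest library. The summed level of 8 neuron markers was 9634 to 11267 CPM in TRH pools, 7907 CPM in sNPFR pool 16 and 10945 to 31207 CPM in the cells, although the pan-neuronal marker elav stood at only 1.37 CPM in pool 16. The 10 glia markers summed to 87.8 to 560.1 CPM in TRH pools, 1589 CPM in pool 16 and 0 to 129.7 CPM in the cells. In pool 16 that sum came mainly from Eaat1 and alrm, and 6 of the 10, repo among them, were at 0. Of 5 hemocyte markers Pxn alone was tested and was higher in TRH (edgeR, adjusted p = 0.00851), while NimC1, srp and He were at 0 in every library. Of 5 photoreceptor markers norpA alone was tested and was higher in sNPFR (adjusted p = 0.0212), while ninaE and trp were at or near 0 in every library. The part of these markers in the levels given below was not tested.

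noe and Hsromega took most of the lncRNA reads. The 38 genes together held 3.55 ± 0.386% of the reads of TRH pools (SD, n = 4), 2.001% in sNPFR pool 16 and 2.19% to 5.43% in the single cells. noe and Hsromega alone made up 3.06 ± 0.348% in TRH pools (SD, n = 4), 1.60% in pool 16 and 1.49% to 4.79% in the cells. The other 36 genes shared 0.497 ± 0.0587% in TRH pools (SD, n = 4), 0.401% in pool 16 and 0.522% to 1.40% in the cells. Pool 16 lay under every TRH pool in all of these shares. The highest share of the other 36 was in cell 3, where CR42862 alone stood at 9081 CPM.

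**Figure D1:**
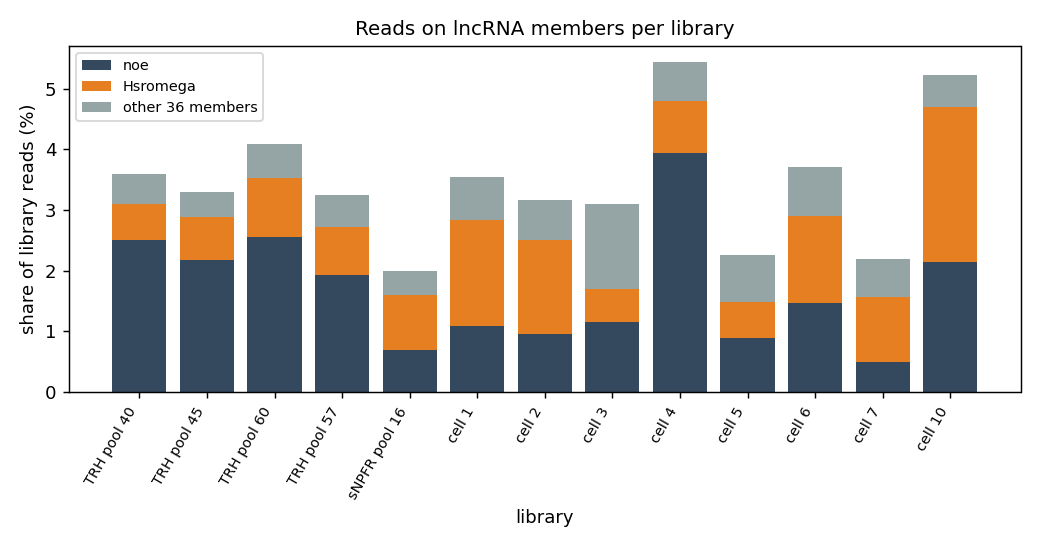
Share of each library's reads (%) on noe, Hsromega and the other 36 lncRNA genes, stacked, for 4 TRH pools, 1 sNPFR pool and 8 single sNPFR cells. The total runs from 2.001% in the sNPFR pool to 5.43% in cell 4, and noe and Hsromega form more than 50% of every bar.

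A few lncRNAs were found in every library and most in few cells, as were most of all genes that meet the level rule. The level rule was met by 1.99% of lncRNA rows, against 33.6% of all other rows. Of the 38 genes, 5 reached 20 CPM in all 13 libraries, which is 13.2% of them, while among all 5361 genes that meet the rule 143 did so, or 2.67%. Among the single cells, 4 of the 38 reached 20 CPM in no cell, 24 in 1 to 3 cells, 5 in 4 to 7 cells and 5 in all 8. The share in 1 to 3 cells was 63.2%, against 51.0% of all genes that meet the rule. For 25 of the 38, a single cell held more than 50% of the CPM summed over the cells. This count was not made over all genes, so it is not read as a trait of lncRNAs. Among the neuron markers, elav reached 20 CPM in 4 cells, Syn and CadN in 5, brp in 7, and nSyb, Syt1, para and fne in all 8. Each TRH pool had 18 to 25 of the 38 at 20 CPM, sNPFR pool 16 had 12 and each cell had 9 to 20. Of all 5361 genes that meet the rule, 713 to 1734 were at that level in each cell. That count was not made here for the pools, so the difference between libraries is not read as a trait of lncRNAs.

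**Figure D2:**
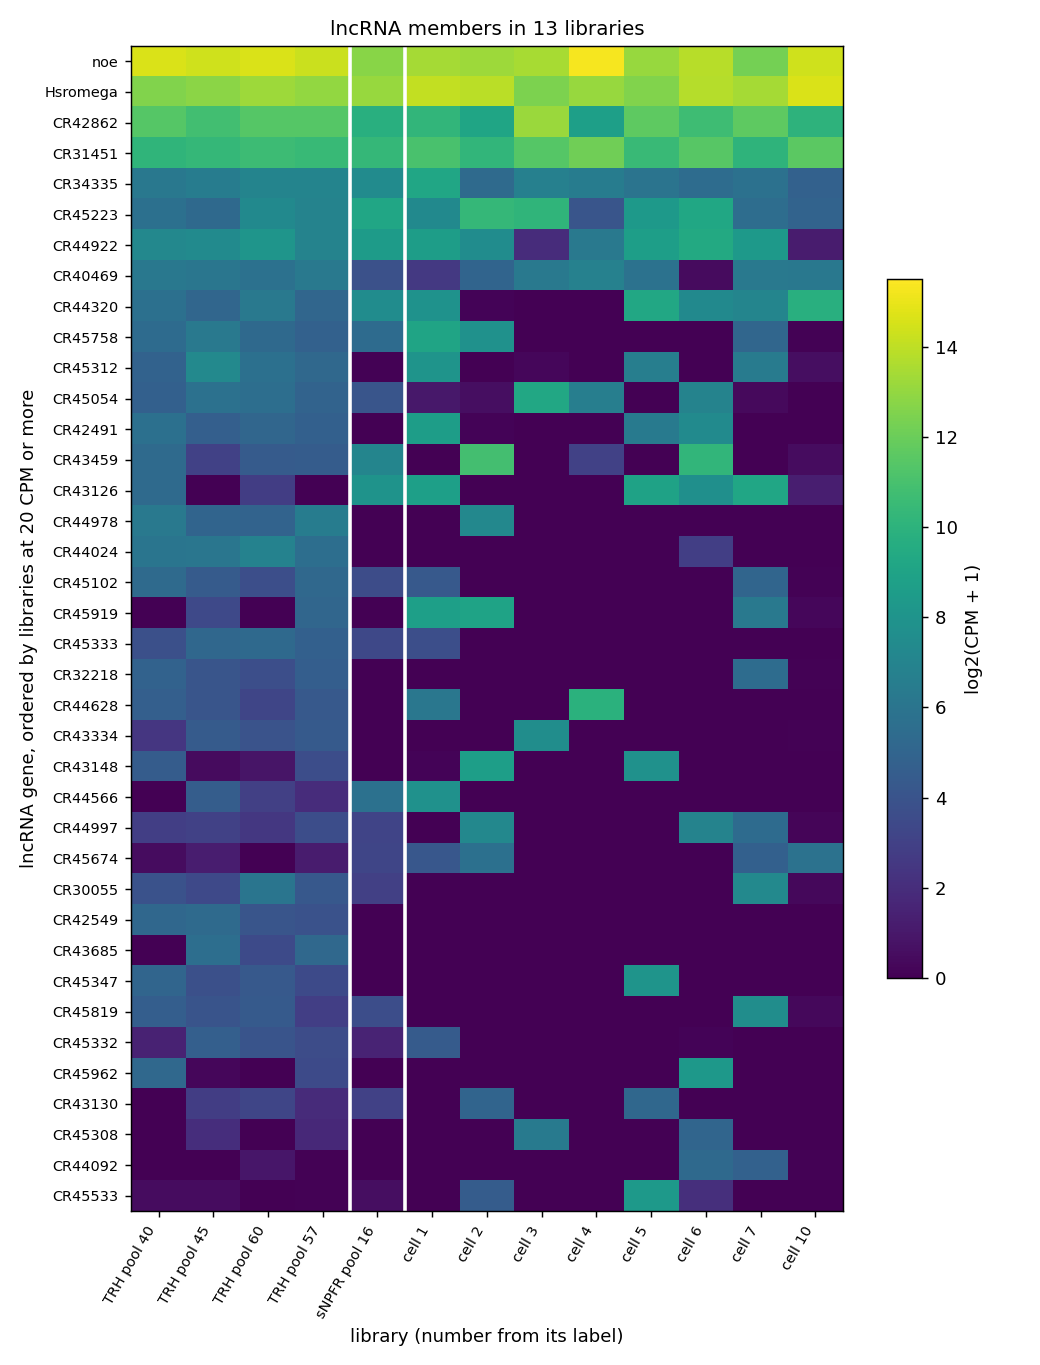
Level of the 38 lncRNA genes (rows, log2(CPM + 1)) in 13 libraries (columns), with white lines between TRH pools, sNPFR pool and single cells. The 5 genes at the top reach 20 CPM in all 13 libraries, and among the genes below them many are at low levels in TRH pools and at a high level in 1 to 3 cells.

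noe was the most abundant. It is a short single-exon RNA known from the fly nervous system (FBgn0026197, BDGP6 chromosome 3L, 17400272 to 17401348, minus strand), and it lies in an intron of blot on the same strand. It stood at 24994, 21748, 25477 and 19239 CPM in TRH pools 40, 45, 60 and 57. sNPFR pool 16 held 6993 CPM, and the cells ran from 4949 through a median of 11188 to 39297 CPM. Pool 16 and 6 of the 8 cells lay under every TRH pool, cell 10 lay among the TRH pools and cell 4 above them. By mean CPM over TRH pools noe ranked 2 among all genes. Its host gene blot reached at most 3.97 CPM in a TRH pool and had no read in any sNPFR library.

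Hsromega is the RNA of the heat shock locus 93D (FBgn0001234, chromosome 3R, 21296127 to 21317836, plus strand). Its long nuclear form gathers hnRNP proteins into bodies called omega speckles. It stood at 6008, 7011, 9775 and 8022 CPM in TRH pools 40, 45, 60 and 57 and at 9007 CPM in sNPFR pool 16, within their range. In the cells it ran from 5491 through a median of 12479 to 25539 CPM, and 5 of the 8 cells lay above all pools. noe was above Hsromega in 8 of 13 libraries. The ratio of noe to Hsromega in CPM was 2.40 to 4.16 in TRH pools, 0.776 in pool 16 and 0.464 to 4.54 in the cells. Per kilobase of exon the gap was wider, because the annotated Hsromega is far longer: the TRH mean was 21230 CPM per kb for noe and 355 CPM per kb for Hsromega. The lengths used were all annotated exonic bases, 1077 for noe and 21710 for Hsromega. Forms of Hsromega were not told apart, so the values do not measure molecules.

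CR31451, called mimi in the current annotation, had the narrowest range over the cells of the 5 genes found throughout (FBgn0051451, chromosome 3R, 23983503 to 23985065, plus strand). mimi is known as a scaffold of neuronal granules that hold ELAV-family proteins. It stood at 1143, 1295, 1596 and 1418 CPM in TRH pools 40, 45, 60 and 57 and at 1273 CPM in sNPFR pool 16. In the cells it ran from 1064 through a median of 2434 to 4558 CPM, a 4.28-fold range. Among ELAV-family genes, fne was found in every library, at 990.2 to 3197 CPM in the cells, while elav ran from 0 in cell 5 to 879.9 CPM in cell 2.

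CR42862 and CR34335 were found throughout but spread widely over the cells. CR42862 (FBgn0262109, chromosome 3L, 224106 to 230964, plus strand) stood at 2686, 1798, 2733 and 2708 CPM in TRH pools 40, 45, 60 and 57. sNPFR pool 16 held 873.8 CPM, under every TRH pool, and the cells ran from 434.5 CPM in cell 4 through a median of 1430 to 9081 CPM in cell 3, a 20.9-fold range. It shares 246 exonic bases, or 4.48% of its exons, with CG33229 on the same strand, which had no read in 5 cells that all held CR42862. CR34335 (FBgn0267910, chromosome X, 3545750 to 3546110, minus strand) stood at 74.3, 91.9, 124.3 and 126.4 CPM in TRH pools 40, 45, 60 and 57. Pool 16 held 176.8 CPM, above the TRH pools, and the cells ran from 27.1 through a median of 58.2 to 582.6 CPM, with cell 1 far above the others.

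**Figure D3:**
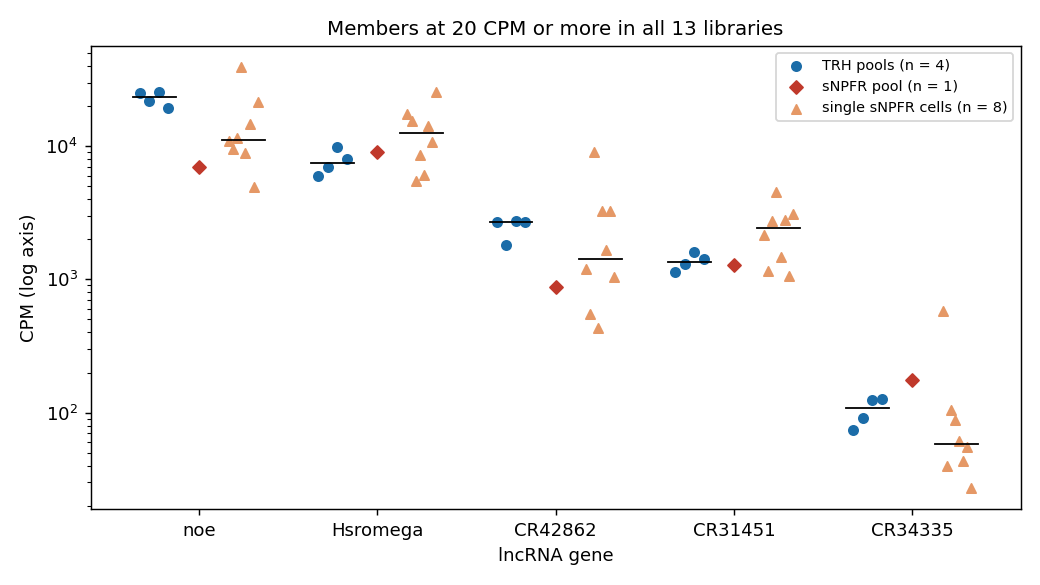
CPM (log axis) of the 5 lncRNA genes that reach 20 CPM in all 13 libraries, by group, with 1 symbol per library and a black line at the median of each group of several libraries. The TRH pools differ at most 1.70-fold for each gene, while the cells spread 4.28-fold for CR31451 and 21.5-fold for CR34335.

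The comparison of drivers asked which lncRNAs differ between TRH-Gal4 and sNPFR-Gal4 neurons. The 4 TRH pools were compared with 2 sNPFR units, pool 16 and the merged cells, which are the reads of all 8 cells added up. Cell 7 gave 52.7% of those reads. edgeR's quasi-likelihood test was fitted to all genes, with Benjamini-Hochberg adjusted p-values and a threshold of 0.05. Log2 fold changes are TRH minus sNPFR, and the value after ± is an approximate standard error worked back from the test. They use edgeR's TMM scaling, while CPM is over library totals, so they can differ from the ratio of the CPM beside them. The median over all genes tested was 0.67 with TMM and 1.28 with library totals. Since the labels do not tie libraries to animals, the p-values measure the spread among these samples alone, which may be technical.

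Of 37 lncRNA genes tested, 2 were higher in sNPFR, 1 was higher in TRH and 34 fell short of the threshold. The 3 are 8.11% of those tested, while over all 7426 genes 13.6% passed, 10.6% as higher in TRH and 3.03% as higher in sNPFR. At an unadjusted p under 0.05 there were 10 lncRNAs, against 33.3% of all genes. In 11 of the 37 the TRH pools did not overlap the sNPFR units in CPM, against 35.5% of all genes. The median log2 fold change was -0.70 over the lncRNAs and 0.67 over all genes tested. The level rule bears on these counts: 28 of the 38 reached 20 CPM with both drivers, CR42549, CR43685, CR44024 and CR45333 with TRH-Gal4 alone, and the remaining 6 with sNPFR-Gal4 alone.

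CR44320 was higher in sNPFR (FBgn0265379, chromosome 3R, 26195250 to 26230268, plus strand). It stood at 51.1, 33.2, 77.2 and 33.7 CPM in TRH pools 40, 45, 60 and 57, at 188.7 CPM in sNPFR pool 16 and at 272.3 CPM in the merged cells. The groups did not overlap, with a log2 fold change of -2.83 ± 0.67 (edgeR, adjusted p = 0.0370). Cells 1, 5, 6, 7 and 10 held 130.7 to 891.3 CPM, and cells 2, 3 and 4 held 0 to 0.128 CPM. It overlaps CG12290 on the same strand by 21 exonic bases. CG12290 was likewise at 0 to 0.219 CPM in cells 2, 3 and 4 and at 29.8 to 668.0 CPM in the other cells, and it did not pass (adjusted p = 0.152). The call of CR44320 was lost without cell 10 (log2 fold change -2.35, adjusted p = 0.0675), without any 1 TRH pool (adjusted p = 0.0710 to 0.117) and with DESeq2's size factors (adjusted p = 0.0603), library totals (0.0879), no filter on low counts (0.0738) or cells weighted equally (0.0637).

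CR43459, which spans mir-277 and mir-34, was also higher in sNPFR (FBgn0263413, chromosome 3R, 10093761 to 10101356, plus strand). miR-277 is known for control of amino acid breakdown and miR-34 for upkeep of the ageing fly brain. CR43459 stood at 39.4, 7.08, 21.1 and 21.5 CPM in TRH pools 40, 45, 60 and 57, at 132.2 CPM in sNPFR pool 16 and at 184.9 CPM in the merged cells. The groups did not overlap, with a log2 fold change of -3.43 ± 0.90 (edgeR, adjusted p = 0.0491). Its level in the cells came from cells 2 and 6, at 1848 and 1191 CPM, while cell 4 held 7.10 CPM, cell 10 held 0.417 CPM and the other 4 none. The call was lost without cell 2 (adjusted p = 0.0962), without cell 6 (0.0631), without any 1 TRH pool (0.0603 to 0.136) and with DESeq2's size factors (0.0761), library totals (0.101) or no filter on low counts (0.0853). The rows of mir-277 and mir-34 themselves were at 0 in all 13 libraries.

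CR42549 was higher in TRH (FBgn0260722, chromosome 3R, 9548104 to 9551806, minus strand). It stood at 35.8, 40.3, 15.8 and 13.8 CPM in TRH pools 40, 45, 60 and 57, with no read in pool 16 or in any cell (edgeR, adjusted p = 0.0271). As pools 40 and 45 alone brought it past the level rule, the levels that chose it are those compared, and the call is given as a description. It shares 97 exonic bases with mura, a RING finger gene, on the same strand. mura went the other way and was higher in sNPFR (-1.73 ± 0.41 on the log2 scale, edgeR, adjusted p = 0.0357), with 414.4 ± 66.7 CPM in TRH pools (SD, n = 4), 682.2 CPM in pool 16 and up to 2156 CPM in cell 6. The call of CR42549 was lost without TRH pool 45, 57 or 60 (adjusted p = 0.0662 to 0.0828).

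The 5 lncRNAs found throughout did not pass. Hsromega had a log2 fold change of -1.10 ± 0.31 (edgeR, adjusted p = 0.0597) and noe of 0.85 ± 0.27 (adjusted p = 0.0854). noe passed with DESeq2's size factors (1.21, adjusted p = 0.0215), library totals (1.42, 0.0146) and the DESeq2 test (1.21, 0.00501). It also passed with no filter on low counts (0.89, 0.0342), cells weighted equally (1.14, 0.0368) and without cell 10 (1.09, 0.0213). Without cell 7 noe did not pass (0.46, 0.400). Its log2 fold change was 1.39 with pool 16 alone and 0.33 with the merged cells alone. Hsromega passed with no filter on low counts (-1.06, adjusted p = 0.0300) and without cell 7 (-1.25, 0.0413). It was weaker and did not pass with library totals (-0.53, 0.173) or cells weighted equally (-0.51, 0.188). Its log2 fold change was -1.63 with the merged cells alone and -0.54 with pool 16 alone. CR31451 had -0.70 ± 0.32 (adjusted p = 0.174), and -0.14 with library totals (0.762). Against the merged cells alone its value was -1.18, and against pool 16 alone -0.21. CR34335 had -0.80 ± 0.66 (adjusted p = 0.432). For CR42862 the value of -0.15 ± 0.51 (adjusted p = 0.873) turned to 0.26 with those size factors.

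**Figure D4:**
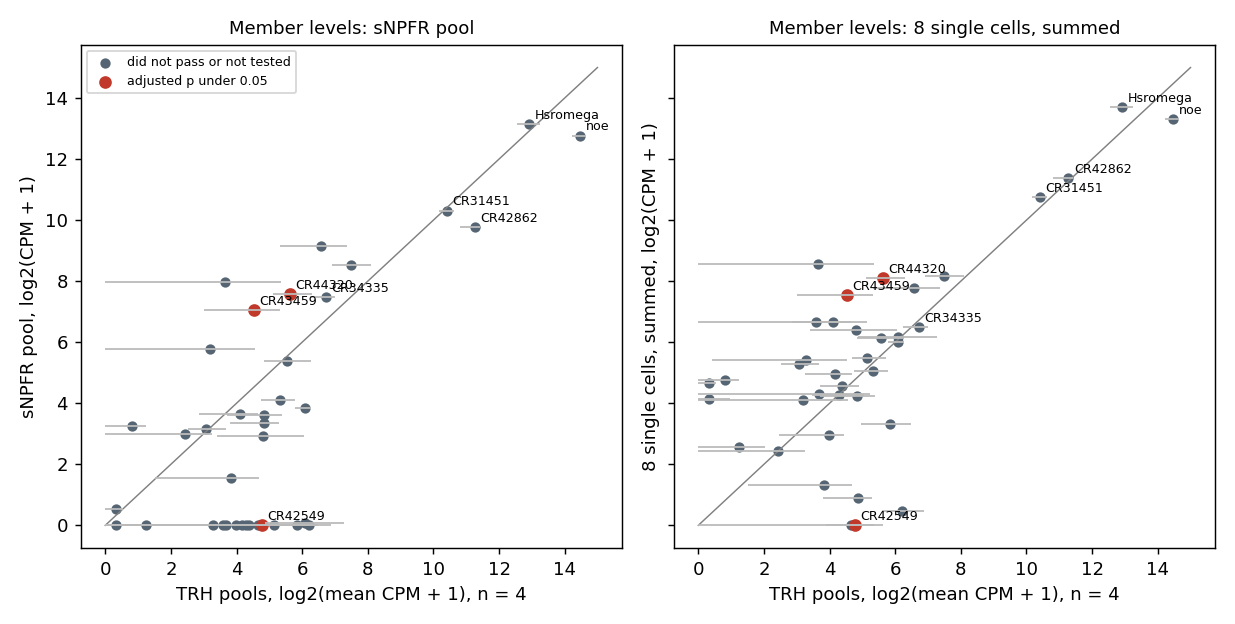
Level of each lncRNA gene in the TRH pools (x axis, log2(mean CPM + 1), n = 4, grey bars from the lowest to the highest pool) against the sNPFR pool (left) and the 8 summed cells (right). Red points passed the threshold, the grey diagonal marks equal levels, and the points at 0 in the left panel are genes with no or almost no read in the sNPFR pool.

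Some lncRNAs of the TRH pools were rare in sNPFR libraries without passing. CR44024 (chromosome 4, 427331 to 431769, plus strand) stood at 63.0, 66.1, 116.4 and 47.9 CPM in TRH pools 40, 45, 60 and 57. It had no read in pool 16, and its 50 reads in the cells all came from cell 6 (edgeR, adjusted p = 0.0875). It passed without that cell (0.0185), with DESeq2 (3.55e-08), with pool 16 alone (0.00217), with the merged cells alone (0.0108) and with cells weighted equally (0.0108). CR43685 stood at 0, 48.4, 10.03 and 37.3 CPM in TRH pools 40, 45, 60 and 57 and had no read in any sNPFR library (edgeR, adjusted p = 0.106, against 0.0475 without pool 40 and 7.57e-05 with DESeq2). TRH pools alone brought CR44024 and CR43685 past the level rule. The levels that chose them are those compared, and their p-values are given as a description. CR44978, in an intron of the receptor phosphatase gene Lar on the opposite strand, stood at 30.1 to 88.9 CPM in TRH pools and, among sNPFR libraries, in cell 2 alone, at 147.8 CPM (adjusted p = 0.434). The sNPFR libraries alone would not have brought CR44978 past the level rule, so its p-value too is given as a description. CR40469 on the X chromosome, the shortest of them, was found more widely, at 66.97 ± 9.60 CPM in TRH pools (SD, n = 4), 13.5 CPM in pool 16 and 0.382 to 112.1 CPM in the cells (adjusted p = 0.939).

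For other lncRNAs the sNPFR units stood above the TRH pools without passing. CR45223 (chromosome 3R, 17646903 to 17653478, minus strand) stood at 52.0, 39.1, 163.9 and 123.7 CPM in TRH pools 40, 45, 60 and 57 and at 565.4 CPM in pool 16. The cells ran from 15.7 through a median of 241.6 to 1297 CPM (log2 fold change -2.49 ± 0.72, edgeR, adjusted p = 0.0643). It passed without cell 7 (0.0325), with DESeq2 (0.0219), with pool 16 alone (0.0193) and with cells weighted equally (0.0489). It overlaps CG14322 on the opposite strand by 477 exonic bases, and as the kit marks no strand, reads in that stretch cannot be told apart. CG14322 was higher in sNPFR (-2.65 ± 0.56, adjusted p = 0.0273), but cells 1, 3 and 6, with 163.7, 1127 and 608.7 CPM of CR45223, held 0, 0.437 and 0 CPM of CG14322. CR44922 stood at 118.7 to 270.5 CPM in TRH pools, 364.6 CPM in pool 16 and 1.30 to 694.8 CPM in the cells (-1.39 ± 0.50, adjusted p = 0.114). CR45674, which lies 124 bases from Rab26, stood at no more than 1.37 CPM in TRH pools, at 8.57 CPM in pool 16 and at 17.5 to 55.8 CPM in cells 1, 2, 7 and 10, with no read in the other 4 (-5.07 ± 2.01, adjusted p = 0.134, and 0.0148 with DESeq2). Single cells alone brought CR45674 past the level rule, so its p-values too are given as a description.

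CR43126 lies 784 bases from fkh, the gene of the forkhead transcription factor. It stood at 40.001, 0, 5.96 and 0 CPM in TRH pools 40, 45, 60 and 57 and at 248.9 CPM in pool 16. Cells 1, 5, 6 and 7 held 213.0 to 566.6 CPM, cell 10 held 1.46 CPM and cells 2, 3 and 4 no read (log2 fold change -5.43 ± 2.42, edgeR, adjusted p = 0.165). Only 1 TRH pool reached 20 CPM, so the sNPFR libraries brought CR43126 past the level rule. Its fold change and p-value are given as a description. fkh itself was higher in sNPFR, at 69.3 ± 41.1 CPM in TRH pools (SD, n = 4) and 314.7 CPM in pool 16 (-3.58 ± 0.71, adjusted p = 0.0244). Cells 2 and 3, with no read of CR43126, held 626.2 and 1164 CPM of fkh. CR34335 lies in an intron of DIP-alpha, a gene of an immunoglobulin wiring receptor, and the levels of these genes also differed. DIP-alpha was higher in TRH (12.7 to 192.3 CPM in the pools, at most 0.156 CPM in any sNPFR library, adjusted p = 0.0281), while CR34335 was found in all 13 libraries.

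**Figure D5:**
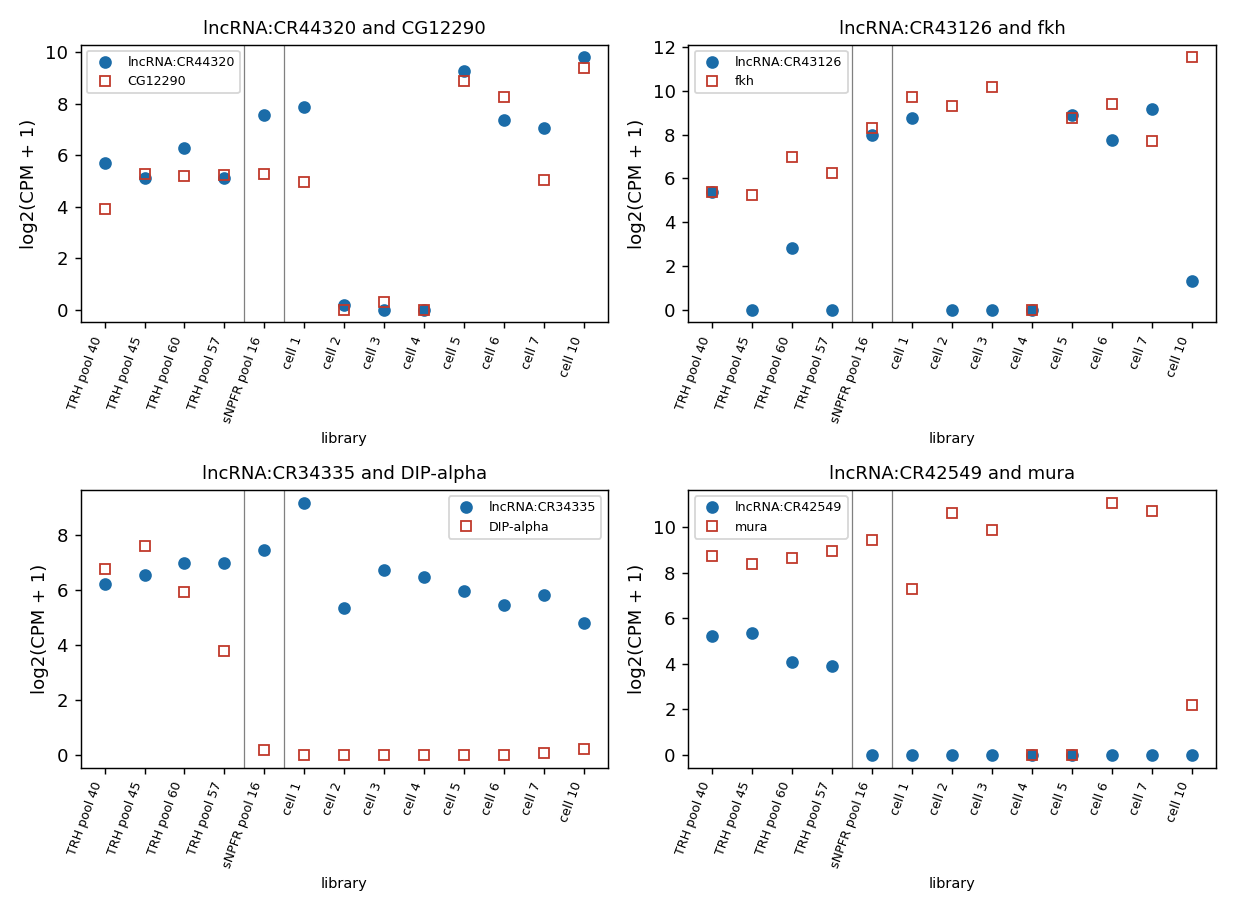
Level (log2(CPM + 1)) of 4 lncRNA genes (blue circles) and of the coding gene they overlap or lie beside (red squares) in each library, with grey lines between TRH pools, sNPFR pool and single cells. CR44320 and CG12290 are at or near 0 in the same 3 cells, while CR34335 and CR42549 differ from DIP-alpha and mura in the sNPFR libraries.

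The annotation places 14 of the 38 genes over the span of a coding gene, 7 with exonic overlap (6 on the same strand, 1 on the opposite) and 7 in introns alone. Another 23 overlap no coding gene. CR43334 was not placed, as its identifier in the count table is missing from that annotation. The annotation does hold a gene of the same name under another identifier (FBgn0286827), inside the RefSeq span of CR43334. Exonic length ran from 214 to 21710 bases with a median of 1085, and 23 genes had a single block of exon. Exonic overlap was over 20% of the lncRNA for CR42491 (50.5%, with the ribosomal protein gene RpL22) and CR45962 (25.4%, with the teneurin gene Ten-m). CR42491 and RpL22 were both found in cells 1 and 6, but cell 5 held 79.1 CPM of CR42491 with no read of RpL22, and cell 10 held 397.8 CPM of RpL22 with no read of CR42491. CR30055 lies in an intron of Sin3A, a corepressor gene, on the opposite strand. The highest cell for both was cell 7, with 158.7 CPM of CR30055 and 692.4 CPM of Sin3A, and no other cell held over 0.260 CPM of CR30055 or over 1.77 CPM of Sin3A. As neither kit marks strand, reads of that Sin3A intron and of CR30055 cannot be told apart. CR45332 and CR45333 lie 86 bases apart on the same strand of chromosome 2L, and both exceeded 1 CPM in the same 6 libraries, the TRH pools, pool 16 and cell 1. Of 15 coding genes that the lncRNAs overlap, 14 were tested, and 1 was higher in TRH (DIP-alpha) and 3 were higher in sNPFR (mura, CG14322 and CG11537), with a median log2 fold change of -1.44. Of 22 coding genes nearest to the remaining lncRNAs 11 were tested, and fkh was the 1 that passed, with a median of -0.18. Over all 7426 genes tested 13.6% passed, 10.6% as higher in TRH and 3.03% as higher in sNPFR, and the median was 0.67. The counts and medians of these lists were not tested against those values.

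Hsromega spans mir-4951 and CR31451 overlaps part of mir-9381 on the same strand, and both were found in all cells. CR45919, CR43334 and CR45347, which also span a microRNA, reached 20 CPM in 1 to 3 cells. CR45919 spans mir-124, a microRNA of neurons (chromosome 2L, 17560813 to 17566551, plus strand). It stood at 420.4, 508.5 and 74.5 CPM in cells 1, 2 and 7, at 0.208 CPM in cell 10 and had no read in the other 4. TRH pools 45 and 57 held 9.83 and 34.0 CPM, and pools 40 and 60 no read. CR43334, which RefSeq also lists as pri-bantam, spans the growth microRNA bantam (chromosome 3L, 628435 to 643900). It stood at 4.47 to 20.6 CPM in TRH pools, 0.0178 CPM in pool 16 and 191.9 CPM in cell 3, with at most 0.0521 CPM in any other cell. CR45347, with mir-4973, stood at 10.1 to 32.4 CPM in TRH pools and at 255.4 CPM in cell 5, with no read in any other sNPFR library. None of these 3 passed (edgeR, adjusted p = 0.553 for CR45919, 0.686 for CR43334 and 0.952 for CR45347). Only 1 TRH pool reached 20 CPM for CR45919, so the cells brought it past the level rule. The p-value of CR45919 is given as a description. Mature microRNAs were not measured, as the cDNA is primed on poly(A) tails.

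Further lncRNAs stood high in 1 to 3 cells. CR44628 stood at 970.9 CPM in cell 4 and 69.8 CPM in cell 1, with no read in the other 6 cells or pool 16, and at 8.46 to 24.6 CPM in TRH pools. CR45054, which ends 3235 bases before CR43459 begins, stood at 620.8, 97.9 and 123.3 CPM in cells 3, 4 and 6, and at no more than 1.001 CPM in the other cells. Among the single cells, these neighbours were both at 20 CPM or more in cell 6 alone, and they were also both at that level in TRH pools 40, 57 and 60. CR45758 stood at 531.3, 228.7 and 34.0 CPM in cells 1, 2 and 7, CR45312 at 255.0, 96.7 and 87.5 CPM in cells 1, 5 and 7, and CR44997 at 149.2, 120.1 and 40.9 CPM in cells 2, 6 and 7. CR43148 stood at 417.0 and 226.4 CPM in cells 2 and 5, and CR45533 at 22.2 and 316.0 CPM in the same cells. In 13 of the 38 genes the highest cell was over 10 times the highest TRH pool, a count that was not made over all genes. At the edge of the level rule, the second highest libraries of CR43334, CR45332 and CR45533 were at 20.6, 21.1 and 22.2 CPM, and those of CR43496, CR44188 and CR46064, just outside, at 19.3, 19.0 and 18.4 CPM.

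Cells 10 and 7 differed from cells 1 to 6 in their low values. They were also the deepest cells, at 19.2 and 68.0 M reads against 3.38 to 9.27 M in cells 1 to 6. There 3 reads were 0.156 CPM in cell 10 and 0.0441 CPM in cell 7, against 0.324 to 0.887 CPM in cells 1 to 6. Lower values could thus be seen in cells 10 and 7, and the shares below are not corrected for depth. Of the 20 lncRNAs at 20 CPM or more in cell 7, 11 stood above 0 and under 2 CPM in cell 10, at 0.121% to 0.536% of their level in cell 7, and none was at 0. In each of cells 1 to 6 at most 1 of those 20 stood in that range. Of all genes that meet the level rule and stood at 20 CPM or more in cell 7, 52.7% stood in that range in cell 10, against 3.63% to 6.92% in cells 1 to 6. Of the genes at 20 CPM or more in each of cells 1 to 6, 33.5% to 42.3% stood in that range in cell 10 and 18.5% to 23.9% in cell 7. Values of that size in cells 7 and 10 are not read here as presence of a gene, and what gave them was not tested.

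Genes of proteins that meet Hsromega, and other noncoding RNAs, were read in the same fit. Of 13 listed genes of omega speckle proteins and the heat shock response, 12 had a row and were tested. The chaperone gene Hsp83 was higher in sNPFR (-1.64 ± 0.37 on the log2 scale, edgeR, adjusted p = 0.0323) and 11 did not pass, with a median of -0.98. The hnRNP gene Hrb27C stood at 1498 ± 394 CPM in TRH pools (SD, n = 4) and 1251 CPM in pool 16. In the cells it stood at 1168 to 4050 CPM except in cell 10, the cell with the highest Hsromega level, where it was at 30.4 CPM. The heat shock factor gene Hsf stood at 8.71 to 190.2 CPM in TRH pools and at 300.2 CPM in cell 5, with at most 0.128 CPM in the other sNPFR libraries. Of 7 Uhg genes, the hosts of small nucleolar RNAs, 5 were tested and none passed (median -0.38). Of the antisense RNA rows 4 met the same level rule and none passed (median 0.01). Over all genes tested 13.6% passed and the median was 0.67, and these lists were not tested against those values.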

How the data were processed

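RNA of 13 libraries was sequenced after SMART-Seq v4 cDNA synthesis and Nextera XT preparation, per the labels' protocols. The authors deposited whole read counts per gene, and these counts were used. The submitters' processing notes name STAR, edgeR and genome build BDGP6, with no versions. The counting tool, annotation and strand option were not given in the sources used here, and neither kit marks strand. The deposited normalized table was not used, nor was 1 column of counts that matches no sample label. Reads without molecular identifiers include PCR copies, so floors cover counting error only: 3 reads were 0.0535 CPM in sNPFR pool 16 and 0.887 CPM in cell 4.

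CPM was computed over each library's total. The test was edgeR 4.0.16 in R 4.3.3 (limma 3.58.1 and DESeq2 1.42.0 for alternatives) with TMM scaling and filterByExpr on all genes, with 4 residual degrees of freedom. Other scalings, filters, sNPFR units and left-out libraries were tried. Python 3.11.15, numpy 2.4.6, pandas 2.3.3 and matplotlib 3.10.9 made the tables and figures. Positions are from Ensembl release 115 (BDGP6), or from RefSeq on the same assembly for CR43334.

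The lncRNAs, lists and tests were chosen with earlier results of these data known. Named lncRNAs were those with a proper name, the 10 most abundant in TRH pools and in any sNPFR library, those past the threshold, hosts of a microRNA or small nucleolar RNA and those at the edge of the level rule, with the coding genes that overlap them and list genes past the threshold. CR30055, CR43126, CR43148, CR43685, CR44978, CR44997, CR45333, CR45674, CR45758 and CR45962 and the coding genes beside them were named after their values were seen, as were Hrb27C, Hsf and the marker genes.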

Additional observations from a re-analysis of the deposited data

Results flagged for a closer look

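In 24 of 78 groups of values (4 TRH pools or 8 cells, for each gene and for the share of reads), the highest or lowest library stood far from the others of its group by Dixon's test. The test's chance rate of about 1 in 20 groups holds for values with a normal distribution. Many of these genes had no read in several cells, so that rate does not apply here. The count of 24 is given as a description and is not read as an excess over chance. In the TRH pools, pool 60 stood high for CR30055 (65.2 CPM) and CR44092 (0.940 CPM), pool 40 stood high for CR43126 (40.001 CPM), and pool 45 stood low for CR42862 (1798 CPM).

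The other 20 values were high levels in 1 cell. In cell 1 these were CR34335 (582.6 CPM), CR45758 (531.3 CPM), CR42491 (394.3 CPM), CR45312 (255.0 CPM), CR44566 (233.1 CPM), CR45332 (21.1 CPM) and CR45333 (12.5 CPM). In cell 3 they were CR42862 (9081 CPM), CR45054 (620.8 CPM), CR43334 (191.9 CPM) and CR45308 (82.0 CPM). In cell 7 they were CR45819 (190.4 CPM), CR30055 (158.7 CPM) and CR32218 (42.9 CPM). CR44628 stood high in cell 4 (970.9 CPM), CR44978 in cell 2 (147.8 CPM), CR45533 and CR45347 in cell 5 (316.0 and 255.4 CPM), and CR45962 and CR44024 in cell 6 (311.5 and 6.36 CPM). A gene with reads in 1 cell alone always meets this test.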

How the results depend on the processing

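Over all genes 1009 passed, 77.7% of them higher in TRH (84.7% with DESeq2's size factors, 87.9% with library totals). DESeq2 called 3039, pool 16 alone 2745 and the merged cells alone 2027. Leaving out 1 pool or cell gave 16 to 1226, and 30, 39 and 16 without TRH pool 45, 60 and 57. The median over all genes moved from 0.67 to 1.05 with those size factors and 1.28 with totals. lncRNAs higher in TRH were 1, and 2 with those size factors, 2 with totals, 5 with DESeq2, 2 with no filter on low counts, 9 with pool 16 alone, 2 with the merged cells alone and 3 with cells weighted equally (limma). lncRNAs higher in sNPFR were 2, and 0, 0, 4, 1, 3, 5 and 2 in the same order. With 1 pool or cell left out these counts ran from 0 to 2 and from 0 to 4. The fold change of CR42862 reversed to 0.26 with those size factors, 0.49 with totals, 0.26 with DESeq2, 1.18 with pool 16 alone and 0.71 with cells weighted equally, and ran from -0.33 to 0.25 with 1 pool or cell left out. The rule gave 38 genes, 60 at 10 CPM, 24 at 50 CPM, 27 in 3 libraries, 37 with TMM, and 35 to 38 without each sNPFR library, a setting chosen after seeing the data. The cause of these shifts was not tested. No paired analysis was possible because the groups share no replicate number. With counts this small, lack of a call does not show that drivers are alike.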

Other observations

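lncRNAs found in 1 library alone stand outside the rule. Of 1913 lncRNA rows, 677 had a read in any library, 51 reached 20 CPM in exactly 1 library and 13 of these stood at 150 CPM or more there. The highest was CR44832 (chromosome X, 5790952 to 5791536, minus strand), with 63836 reads or 7293 CPM in TRH pool 45 and 1 read in all other libraries. In that pool the 38 genes held 80.7% of all lncRNA reads, against 95.6% to 99.98% in the other 12 libraries. CR43253 stood at 723.3 CPM in cell 10, with 2 reads in all other libraries, CR31386 at 495.6 CPM in cell 5 and CR45910 at 212.9 CPM in the sNPFR pool. These genes were chosen after their values were seen.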
